A study of Homo sapiens with 18 samples.

Results

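The KO2 line is one of 2 SETD3 knockout lines of HCT-116 (an established line of human colorectal carcinoma cells) and it was compared here with its SETD3 control, CT. SETD3 is the methyltransferase that modifies a histidine of actin. Of the 18 libraries in the study, 6 belong to this comparison: 3 labelled SETD3 KO of the KO2 line and 3 labelled SETD3 Control. The 3 libraries of the other knockout line, KO1, serve as a second reference and share the estimate of the spread. All 9 libraries came from poly(A) RNA of cells grown in DMEM with fetal bovine serum, with no other treatment or allele given. The labels do not say how the knockout was made, whether a line is 1 clone, or whether the replicates of a line were separate cultures, and the tests therefore read only the spread among these libraries, which may be technical. One library, KO2 replicate 3, carries the cell line label HCT-117 and was kept in its group. Since a knockout line is compared with 1 control, effects of the missing gene and differences between the lines cannot be told apart.

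Actin is the main component of the cytoskeleton, and cells adapt its transcription through serum response factor and its coactivators, which sense unpolymerised actin. SETD3 acts on the actin protein and not on its RNA. SMARCA4 is the ATPase of the BAF chromatin remodelling complex, which also holds actin as a subunit. HCT-116 cells are epithelial cells of colonic origin with active Wnt signalling.

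Of 60683 gene rows, 13846 were expressed highly enough to be tested. Levels are given as CPM, the counts of a gene per 1e6 counts of its library after TMM scaling. Changes are log2 differences from edgeR with their standard error (SE), and a gene was called when its Benjamini-Hochberg adjusted p over all tested genes was below 0.05. Total counts ranged from 3389586 to 11652967 per library. KO2 replicate 1, the shallowest, had a count for 13851 genes and CT replicate 2 for 15249, against 16102 to 18688 in the others, and both stood apart, with median correlations to the other libraries of 0.817 and 0.838 against 0.872 to 0.893. The coefficient of variation between replicates was estimated in edgeR and leaves out counting error. Its median was 22.7% for genes over 100 CPM and 100% for genes at 1 to 5 CPM. Changes of low genes were therefore not detectable unless they were large.

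SETD3 RNA itself was at 15.5, 14.0 and 36.0 CPM in the CT libraries and at 15.6, 22.3 and 27.7 CPM in the KO2 libraries. The groups overlapped, and the log2 difference was 0.01 (SE 0.51, adjusted p = 1). In KO1 the libraries were at 6.81, 6.34 and 17.1 CPM. The RNA level therefore gave no check of the KO2 label, and KO2 is used below as the name the labels give. The actin genes and SMARCA4 did not pass the test either. ACTB, cytoplasmic beta-actin, was at 1125 ± 211 CPM in CT and 972 ± 300 CPM in KO2 (SD, n = 3), a log2 difference of -0.21 (SE 0.22). ACTG1, gamma-actin, differed by -0.07 (SE 0.23) and SMARCA4 by -0.05 (SE 0.23), with an adjusted p of 1 for all 3 genes.

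Between KO2 and CT, 8 genes passed the test in edgeR. IFI27, LY6D and DPP4 rose, which is 0.0217% of the genes tested, and NR2F1, BMP4, HS3ST1, GPAT2 and MT2A fell, which is 0.0361%. At an unadjusted p below 0.05 there were 371 higher and 315 lower genes, and the median log2 difference of all tested genes was -0.01. The count depended on the tool and the fit: DESeq2 called 46 higher (0.333%) and 44 lower genes (0.319%), edgeR without its filter on low counts 36 (0.147%) and 32 (0.131%), and edgeR on the compared groups alone 1 gene. Calls below are those of edgeR unless another tool is named. Over all tested genes, 4.97% had every KO2 library above every CT library and 5.28% had every KO2 library below. Against KO1, 4 genes rose in KO2 (0.0289%) and none fell (0%), with 376 higher and 294 lower genes at an unadjusted p below 0.05; DESeq2 called 37 higher (0.268%) and 19 lower (0.138%). Of the 4 genes called in edgeR, IFI27 and LY6D were also called against CT. IFI6 was called against CT in DESeq2 and not in edgeR, and BST2 in neither. In bulk samples such as these, fewer cells of a type and less RNA per cell cannot be told apart.

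**Figure D1:**
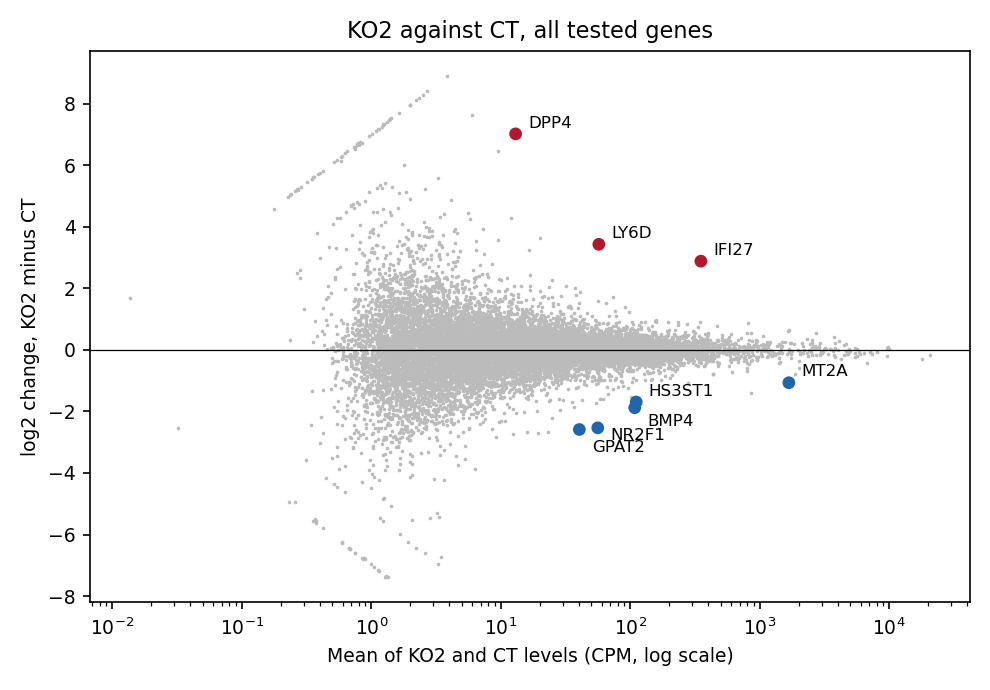
Each point is a tested gene (13846 in all, less 1 with no count in KO2 or CT), with the mean of its KO2 and CT levels in CPM (x axis, log scale) and its log2 change in KO2 minus CT (y axis). Red and blue points are the 3 genes that rose and the 5 that fell; the scatter of the grey points is widest at low levels.

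IFI27 had the smallest p of all genes. It is an interferon-stimulated gene, one of a class that cells switch on when interferon receptors are engaged, and its product is a mitochondrial membrane protein. The CT libraries were at 63.5, 117.2 and 71.6 CPM, and the KO2 libraries at 695.5, 627.1 and 531.1 CPM. The lowest KO2 library lay above the highest CT library. The log2 difference was 2.88 (SE 0.25, adjusted p = 6.72e-04 in edgeR), a 7.36-fold rise. KO1 was at 34.6, 38.2 and 30.9 CPM, below every CT library, and KO2 exceeded KO1 by 4.16 on the log2 scale (SE 0.27, adjusted p = 1.77e-05). The call held without each library in turn.

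Interferon-stimulated genes share a short response element, searched here as 2 copies of GAAA with any 2 bases between them, on both strands. The RefSeq promoters (GRCh38.p14) of the 3 interferon-stimulated genes called in either comparison are shown because they carry it. Each line is the 250 bases before the start site, with matches in capitals.

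IFI27: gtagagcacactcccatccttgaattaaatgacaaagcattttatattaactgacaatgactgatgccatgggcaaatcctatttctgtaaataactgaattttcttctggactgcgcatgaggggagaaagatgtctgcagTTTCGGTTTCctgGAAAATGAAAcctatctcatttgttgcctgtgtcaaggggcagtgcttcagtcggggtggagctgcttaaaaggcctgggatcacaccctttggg

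IFI6: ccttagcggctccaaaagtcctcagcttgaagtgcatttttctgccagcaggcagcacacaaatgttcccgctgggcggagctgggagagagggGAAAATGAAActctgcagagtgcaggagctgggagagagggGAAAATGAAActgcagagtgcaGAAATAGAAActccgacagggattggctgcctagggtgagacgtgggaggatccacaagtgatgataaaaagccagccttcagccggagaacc

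BST2: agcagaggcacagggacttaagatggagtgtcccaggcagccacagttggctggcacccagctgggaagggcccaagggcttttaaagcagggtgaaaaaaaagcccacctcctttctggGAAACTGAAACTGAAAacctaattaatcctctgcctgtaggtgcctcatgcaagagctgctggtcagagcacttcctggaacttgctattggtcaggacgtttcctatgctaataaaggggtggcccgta

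The IFI27 window (chr14:94110486-94110735, plus strand, the first of 2 start sites in the table) held 2 matches, beginning 108 and 95 bases before the start. The IFI6 window (chr1:27672193-27672442, minus strand) held 3 and the BST2 window (chr19:17405631-17405880, minus strand) held 2, which overlap each other. Of all 35116 promoters in the table, 3.02% held at least 1 match and 0.225% held 2 or more. Among the tested interferon-stimulated genes, 28 of 35 matched a promoter in the table. The 17 with a match had a median log2 difference of 0.15 against CT and 1.26 against KO1, and the 11 without had medians of 0.06 and 0.89. A match describes the letters of the window and is not a binding site.

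In edgeR no other interferon-stimulated gene was called in KO2 against CT; DESeq2 also called IFI6. Of 46 genes in that list 35 were tested, 1 rose and none fell, 22 were higher and 13 lower, and the median log2 difference was 0.06, beside 49.2% higher and a median of -0.01 over all tested genes. ISG15, a ubiquitin-like modifier, was at 3099 CPM in CT and 2865 CPM in KO2, a difference of -0.11 (SE 0.17). IFITM3, an antiviral membrane protein, differed by 0.01 (SE 0.29). IFI6, a relative of IFI27, was at 133.8, 187.5 and 165.2 CPM in CT and at 345.3, 282.4 and 279.3 CPM in KO2. Its libraries did not overlap, but the difference of 0.90 (SE 0.20) had an adjusted p of 0.255 in edgeR and of 0.0105 in DESeq2. The 2 other family members, IFI27L1 and IFI27L2, differed by 0.14 (SE 0.46) and -0.30 (SE 0.21).

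Against KO1, 3 genes of the list rose in KO2, none fell, 31 of 35 were higher, and the median log2 difference was 0.97, beside 50.7% higher and a median of 0.01 over all tested genes. DESeq2 also called ISG15 (log2 difference 0.97, adjusted p = 0.001) and OAS1 (7.04, adjusted p = 0.00176) against KO1. IFI6 was at 39.8, 40.5 and 47.6 CPM in KO1, and KO2 exceeded it by 2.82 (SE 0.21, adjusted p = 6.30e-05). BST2, tetherin, which holds enveloped viruses at the cell surface, was at 30.0, 25.7 and 43.2 CPM in CT, at 4.14, 2.58 and 1.82 CPM in KO1 and at 70.0, 43.2 and 41.4 CPM in KO2. KO2 exceeded KO1 by 4.17 (SE 0.44, adjusted p = 0.00173), while against CT the libraries overlapped and the difference was 0.64 (SE 0.37, adjusted p = 1). The mean CT levels of BST2 and IFI6 lay between those of the 2 knockout lines. The signalling genes above this response did not pass the test against CT: of 11 tested receptors, kinases and factors 5 were higher and 6 lower, with IRF9 at 0.06 (SE 0.53). Against KO1 none of the 11 was called in edgeR either, and their median was 0.05, with values on both sides of 0. IRF9 was the furthest from KO1, at 15.7 CPM in KO2 against 4.13 CPM (log2 difference 1.93, adjusted p = 0.728). IFNB1, which encodes interferon beta, had no count in any of the 9 libraries. IFNL1, IFNL2 and IFNL3 were below the low-count filter. IFNL2 had 6, 7 and 7 counts in CT, KO1 and KO2, and IFNL1 and IFNL3 had 3 each, in KO2 only.

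**Figure D2:**
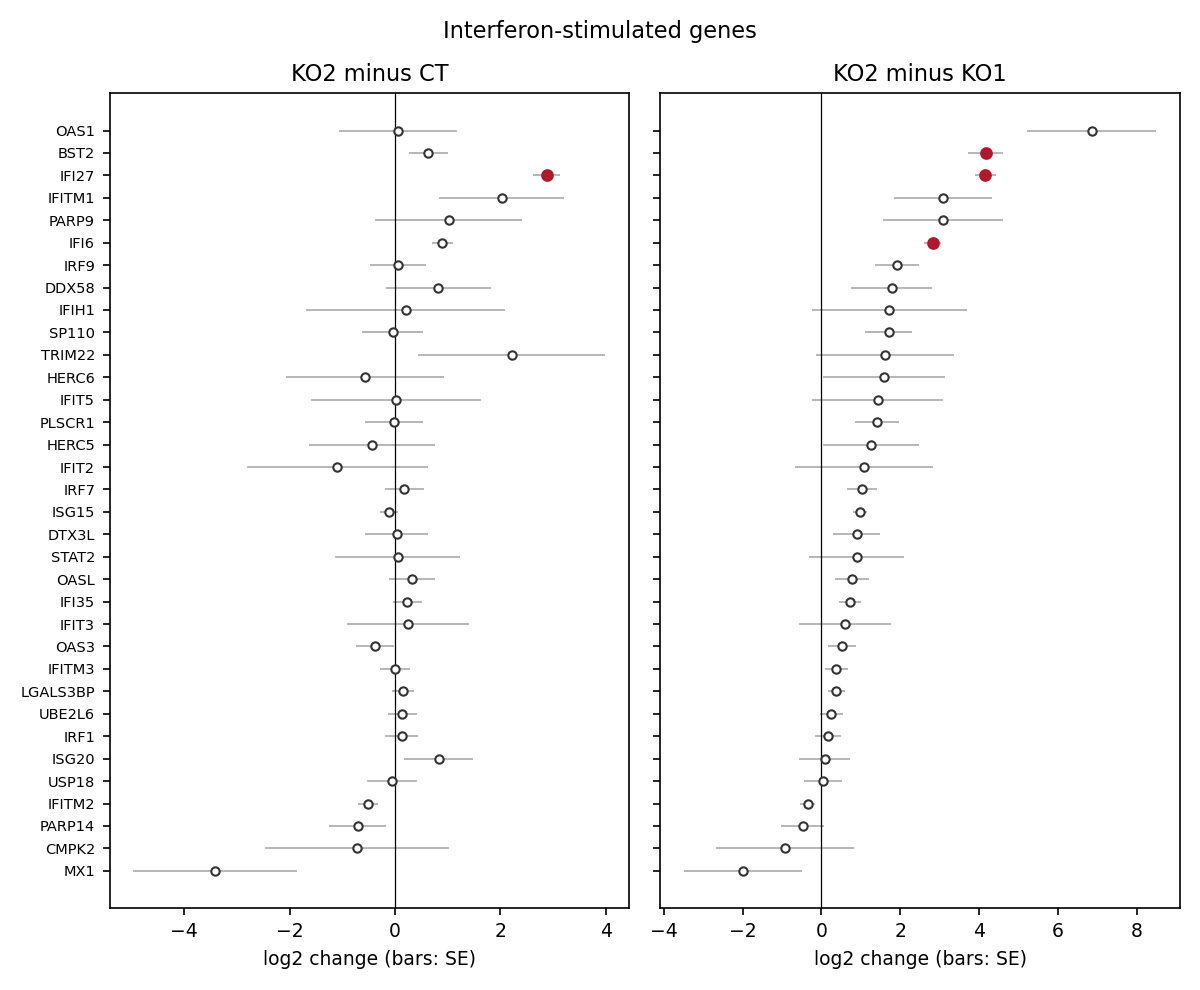
Log2 change (x axes, bars are the SE) of the tested interferon-stimulated genes (35 in all, less 1 not drawn) in KO2 minus CT (left) and KO2 minus KO1 (right), with filled red points for genes that passed the test. Against CT the median is 0.06 and IFI27 alone passed; against KO1 the median is 0.97 and IFI27, IFI6 and BST2 passed.

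DPP4 and LY6D encode proteins of the cell surface. DPP4 is a membrane peptidase that trims incretins and chemokines and is a marker of the absorptive intestinal surface. It was nearly absent from CT, at 0.194, 0.443 and 0 CPM or 4 counts in all, and was at 31.2, 24.1 and 22.2 CPM in KO2. The log2 difference was 7.02 (SE 0.86, adjusted p = 0.00984). KO1 was intermediate at 18.8, 7.99 and 6.22 CPM, and KO2 exceeded it by 1.23 (SE 0.61), which did not pass (adjusted p = 0.999). No other of the 8 tested dipeptidyl peptidase relatives was called, and the family median was 0.10. The DPP4 call ended without CT replicate 1 (adjusted p = 0.051) and in limma-voom (adjusted p = 0.165).

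LY6D, a GPI-anchored protein of the LY6 family known from keratinocytes and lymphoid progenitors, was at 14.8, 7.54 and 6.57 CPM in CT and at 60.8, 125.5 and 127.7 CPM in KO2. No KO2 library overlapped CT, and the lowest was KO2 replicate 1. The rise was 3.43 on the log2 scale (SE 0.45, adjusted p = 0.0125), a 10.8-fold change. KO1 stayed at 4.29, 9.16 and 5.46 CPM, and KO2 exceeded it by 4.05 (SE 0.47, adjusted p = 0.00374). Of 10 tested members of the LY6 and uPAR family, LY6D alone was called, 3 were higher and 7 lower. The call against CT ended without CT replicate 2 (adjusted p = 0.0794), CT replicate 3 (0.159), KO2 replicate 2 (0.11) or KO2 replicate 3 (0.0584). The call against KO1 ended without KO1 replicate 1 (0.0585) or KO1 replicate 3 (0.0553), and with the replicate block (0.0503).

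Among the genes that fell, NR2F1 and BMP4 act in cell fate. NR2F1 (COUP-TFI) is an orphan nuclear receptor that represses or activates developmental genes. It was at 114.7, 84.4 and 88.4 CPM in CT and at 12.4, 20.9 and 15.8 CPM in KO2, with no overlap. The log2 difference was -2.53 (SE 0.29, adjusted p = 0.00607). KO1, at 39.5, 37.1 and 42.9 CPM, lay between them, and KO2 differed from KO1 by -1.27 (SE 0.28, adjusted p = 0.283 in edgeR and 0.00833 in DESeq2). Its paralogs NR2F2 and NR2F6 differed by 0.16 (SE 0.42) and 0.30 (SE 0.20). The NR2F1 call held without each library in turn. The strand setting of the counting was not given in the sources used here. Reads from any stretch that NR2F1 shares with its antisense neighbour NR2F1-AS1 therefore cannot be told apart.

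BMP4 is a secreted ligand of the BMP pathway. There type I receptors, working with type II receptors, phosphorylate SMAD1, SMAD5 and SMAD9, which with SMAD4 switch on ID genes. In the colon BMP signals oppose stem cell renewal. BMP4 was at 193.7, 131.0 and 185.9 CPM in CT and at 48.4, 44.1 and 46.3 CPM in KO2. It fell by 1.88 on the log2 scale (SE 0.24, adjusted p = 0.0118). KO1 was at 60.5, 62.7 and 44.6 CPM, and KO2 differed from it by -0.28 (SE 0.23). The call ended without CT replicate 1 (adjusted p = 0.051), CT replicate 3 (0.129), KO2 replicate 2 (0.136) or KO2 replicate 3 (0.0584).

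The rest of the BMP pathway, listed after BMP4 had been called, had no other called member. Of 10 ligands 4 were tested, and BMP7 differed by -0.06 (SE 0.42). The 9 tested receptors and SMADs were low genes, with 3 higher and 6 lower. All 7 tested antagonists and inhibitors were higher in KO2 than in CT, with a median of 0.62, beside 49.2% higher over all tested genes. Against KO1 their median was 0.03. NOG, CHRD, FSTL1, TWSG1 and BAMBI were low genes, with an SE of 0.71 to 1.46 against CT. GREM1, at 26.1 CPM in CT, differed by 0.02 (SE 0.30). The one with an unadjusted p below 0.05 was FSTL3 at 0.55 (SE 0.25, adjusted p = 0.981). The targets divided, with 4 higher and 6 lower. ID1 differed by -0.16 (SE 0.16), ID3 by -0.24 (SE 0.18) and ID2 by 0.97 (SE 0.37, adjusted p = 0.848).

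**Figure D3:**
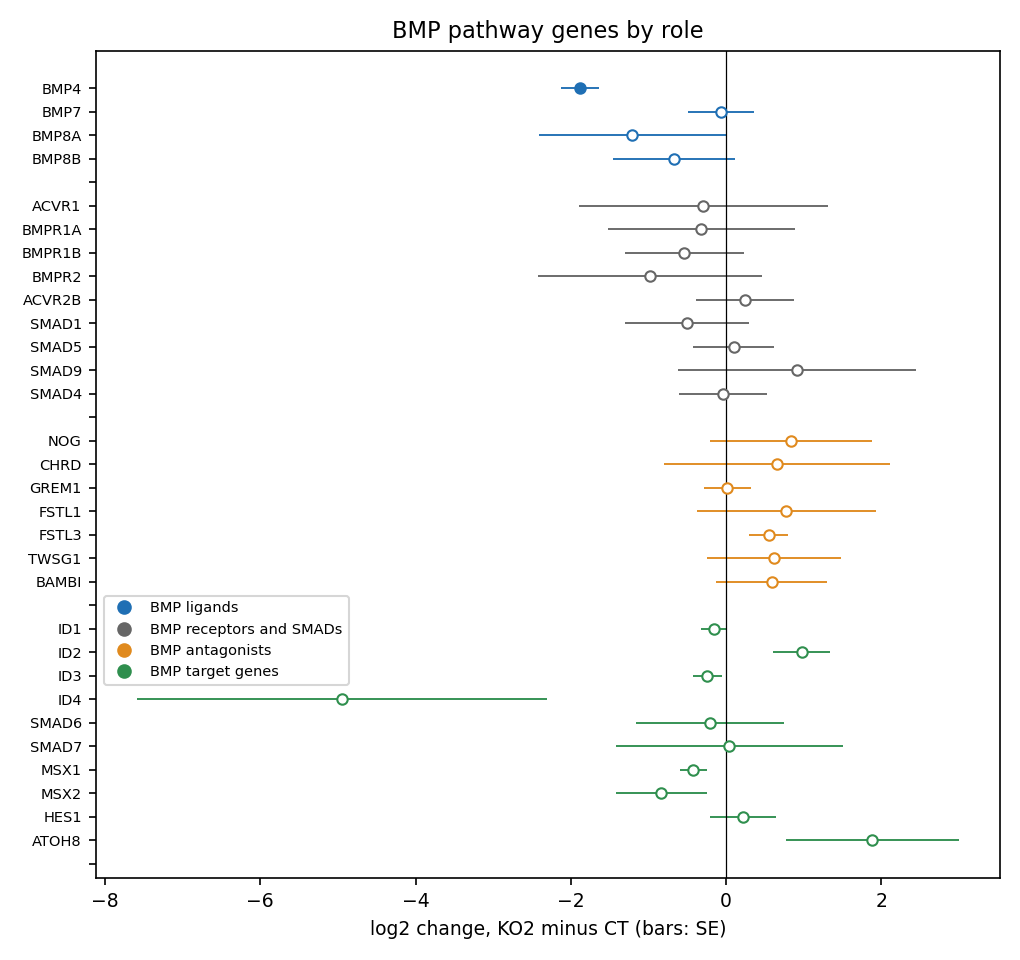
Log2 change in KO2 minus CT (x axis, bars are the SE) of each tested BMP pathway gene, coloured by role; the filled point is called. BMP4 at -1.88 is the filled point, and the 7 antagonists all lie above 0 with no call.

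HS3ST1 and GPAT2 encode enzymes. HS3ST1 adds the 3-O-sulphate to heparan sulphate chains that antithrombin recognises. Its CT libraries were at 178.4, 128.1 and 203.6 CPM and its KO2 libraries at 44.9, 50.4 and 61.8 CPM, a log2 difference of -1.70 (SE 0.24, adjusted p = 0.019). KO1, at 83.3, 87.6 and 93.4 CPM, lay between the groups. None of the 10 other tested enzymes of heparan sulphate assembly was called, and the median of all 11 was 0.35. The call ended without CT replicate 1 (0.0735), CT replicate 3 (0.178), KO2 replicate 1 (0.0515), KO2 replicate 2 (0.147) or KO2 replicate 3 (0.0576), given as adjusted p.

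GPAT2 is a glycerol-3-phosphate acyltransferase of mitochondria that is mainly known from the testis. It was at 55.7, 82.0 and 70.0 CPM in CT and at 15.3, 10.5 and 9.19 CPM in KO2. The groups did not overlap, and the log2 difference was -2.59 (SE 0.37, adjusted p = 0.0207). KO1 was at 27.7, 22.7 and 13.2 CPM, and KO2 differed from it by -0.88 (SE 0.36). The other 10 tested acyltransferases and lipins of this pathway had no call. GPAT2 has near-identical copies in the genome, between which the counting could split reads, so its level is uncertain. The call ended without CT replicate 1 (0.051), CT replicate 2 (0.106), CT replicate 3 (0.162), KO2 replicate 2 (0.172) or KO2 replicate 3 (0.133).

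The last of the genes that fell was MT2A, a metallothionein. Metallothioneins are small cysteine-rich proteins that bind zinc and copper, and the factor MTF1 switches them on through metal response elements. MT2A was at 1929, 2551 and 2335 CPM in CT and at 1231, 1013 and 1006 CPM in KO2. It fell by 1.07 on the log2 scale (SE 0.16, adjusted p = 0.0249). KO1 was at 1365, 1333 and 1228 CPM, so the KO2 level lay below KO1 by a log2 difference of -0.27 (SE 0.16, adjusted p = 0.999). MT1X was at -1.07 (SE 0.42, adjusted p = 0.874), MT1E at -0.33 (SE 0.17) and MT1F at 0.23 (SE 0.65). These paralogs are similar in sequence, so the split of reads between them is uncertain. The MT2A call ended without CT replicate 2 (0.133), CT replicate 3 (0.207), KO2 replicate 2 (0.213) or KO2 replicate 3 (0.133).

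The 250 bases before the MT2A start (chr16:56608334-56608583, plus strand) are shown because they are dense in the core of that element, searched as TGCACNC and TGCGCNC on both strands and marked in capitals.

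MT2A: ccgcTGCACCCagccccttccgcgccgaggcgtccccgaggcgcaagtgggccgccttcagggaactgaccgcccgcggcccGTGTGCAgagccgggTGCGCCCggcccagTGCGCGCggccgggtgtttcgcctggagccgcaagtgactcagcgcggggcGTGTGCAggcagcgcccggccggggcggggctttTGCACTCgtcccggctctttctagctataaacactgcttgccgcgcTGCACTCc

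The window held 7 matches. Of all 35116 promoters of this length, 24.8% held at least 1 match and 0.0313% held 7 or more.

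**Figure D4:**
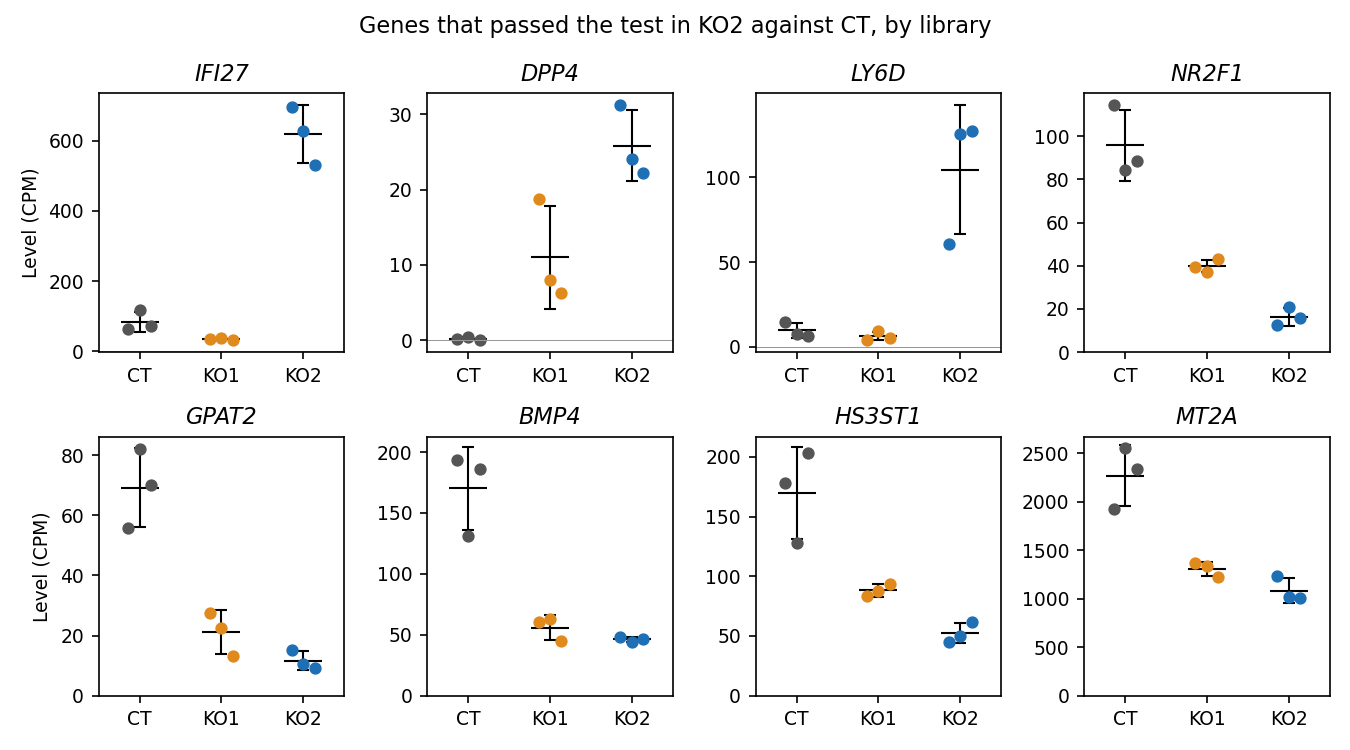
Level in CPM (y axes, from 0) of the 8 called genes in each CT, KO1 and KO2 library; points are libraries, bars the mean and SD of 3. The KO2 points lie apart from the CT points in every panel, and KO1 lies near KO2 for BMP4 and MT2A and near or below CT for IFI27 and LY6D.

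The called genes did not share a place in the genome. They lie on 6 chromosomes: IFI27 (chr14:94104836-94116698) and BMP4 (chr14:53949736-53958761) on chromosome 14, DPP4 (chr2:161992241-162074542) and GPAT2 (chr2:96021946-96039451) on chromosome 2, NR2F1 (chr5:93583224-93594615), HS3ST1 (chr4:11393150-11429765), MT2A (chr16:56608199-56609497) and LY6D on chromosome 8, in GENCODE release 29 on GRCh38. Of the 32 tested neighbours, 2 on each side of a called gene, 0 were called in edgeR and 0 had an unadjusted p below 0.05. Many were low genes, in which changes were not detectable unless large. The neighbours of NR2F1 were all lower in KO2: AC008517.1 at -1.22, NR2F1-AS1 at -1.54, FAM172A at -2.87 and MTND6P3 at -0.96. Their unadjusted p in edgeR was 0.428, 0.24, 0.142 and 0.0648, at CT means of 1.06, 11.61, 3.38 and 18.55 CPM. A common fall of this region was not tested. Around each other called gene the neighbours lay in both directions. The chromosome medians ran from -0.21 to 0.09 on the log2 scale.

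Below the threshold, the remaining places among the leading genes were filled by the smallest p-values with non-overlapping libraries. None of these 16 genes passed in edgeR, while all 16 were called in DESeq2 and in edgeR without the filter on low counts. With GC offsets LCN2, MGLL, GATA2 and RELA were called, and in limma-voom SLCO3A1. Of the higher genes, LCN2, a secreted iron-binding protein of inflamed epithelium, was at 8.46 CPM in CT, 35.02 CPM in KO1 and 41.0 CPM in KO2 (log2 difference from CT 2.26, SE 0.38, adjusted p = 0.0641). MGLL, the lipase of monoacylglycerols, was at 3.25 (SE 0.54, adjusted p = 0.0641), and the transporter SLCO3A1 at 3.64 (SE 0.66, adjusted p = 0.108). BRSK2, a kinase of neuronal polarity, was at 4.29 (SE 0.78), the lysosomal protease CTSH at 2.06 (SE 0.38) and the transcription factor GATA2 at 1.76 (SE 0.33). In LCN2, MGLL, SLCO3A1, BRSK2, CTSH and GATA2 the KO1 mean lay above the CT mean. The same CT libraries entered the choice of these genes, which favours this order in advance, so it is not independent support. CA9, the hypoxia-induced carbonic anhydrase, was at 0.485, 0 and 0 CPM in CT and at 41.7, 8.76 and 6.04 CPM in KO2 (6.47, SE 1.34, adjusted p = 0.229). GPRC5C, an orphan receptor, was at 1.71 (SE 0.36, adjusted p = 0.248). ZC4H2, a zinc finger protein, had no count in CT and 153 counts in KO2, at least 44.1-fold higher against a floor of 3 counts over the group. In CA9, GPRC5C and ZC4H2 the KO1 mean lay above the CT mean, with the same limit. The KO1 means were 1.55, 56.4 and 3.57 CPM, against 0.162, 34.6 and 0 CPM in CT.

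Of the lower genes, RELA had the smallest p among those not called. It encodes the p65 subunit of NF-kappaB. The CT libraries were at 78.5, 110.6 and 87.5 CPM, KO1 at 72.7, 80.1 and 87.1 CPM and KO2 at 31.5, 23.6 and 36.6 CPM. The log2 difference was -1.59 against CT (SE 0.26, adjusted p = 0.0521) and -1.39 against KO1 (SE 0.25, adjusted p = 0.126). Against CT it was called in DESeq2 (adjusted p = 1.22e-05), without the low-count filter (7.62e-04), with a filter of 5 CPM (0.0389) and with GC offsets (0.0258). The 10 other subunits and inhibitors of NF-kappaB had no call, with 5 higher and 5 lower. VEGFB, a growth factor of the VEGF family, was at 99.1 CPM in CT, 97.9 CPM in KO1 and 36.2 CPM in KO2 (-1.45, SE 0.25, adjusted p = 0.0831). SNHG9, a small nucleolar RNA host gene, was at 149.7, 190.4 and 51.4 CPM in the same order (-1.53, SE 0.31, adjusted p = 0.189), and the transcript AC005256.1 was at -1.94 (SE 0.38, adjusted p = 0.173). HOXB8, a homeobox factor, had 156 counts in CT, 366 in KO1 and 4 in KO2 (adjusted p = 0.189). RNF43, which removes Wnt receptors from the cell surface, had 180 counts in CT, 117 in KO1 and 1 in KO2. In edgeR the log2 difference of RNF43 from CT was -6.72 (SE 1.42, adjusted p = 0.248), a 105-fold fall. Its KO2 level rests on 1 count. From counts pooled over libraries and scaled for depth, the CT level was 208 times the KO2 level. The 95% counting interval was 36.9 to 8270. The KO1 level was 141 times the KO2 level (24.8 to 5610). MT-RNR1, a mitochondrial ribosomal RNA, was at -1.40 (SE 0.29, adjusted p = 0.248), with KO1 close to KO2.

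Across 35 lists of pathway genes and 5 of cell markers, 5 lists held a gene called in edgeR: interferon-stimulated genes (IFI27), surface adhesion molecules and intestinal differentiation (both DPP4), Wnt targets and stem cell genes (BMP4) and metallothioneins with zinc transport (MT2A). In the surface adhesion list 1 of 23 tested genes rose and the median was -0.04. In intestinal differentiation 1 of 11 rose, 8 were higher, and the median was 0.50. That list held 38 genes, of which 14 had no count, SI and ALPI among them. The rest of those not tested were below the low-count filter, among them VIL1, ANPEP, FABP1, FABP2, KRT20 and LGALS4. In the Wnt list 1 of 17 fell, 11 were higher, and the median was 0.14. At an unadjusted p below 0.05 in edgeR 4 were lower and 1 higher, beside 2.28% and 2.68% over all tested genes. The lower were BMP4, RNF43, SOX4 (-0.77, SE 0.25) and SOX9 (-1.28, SE 0.45), and the higher was NOTUM (2.33, SE 0.81). Metallothioneins and zinc transporters had 1 of 12 that fell and a median of -0.27. The other 35 lists had no call in edgeR. Of the 942 genes tested over all lists, DESeq2 called 11 beyond those called in edgeR. They were IFI6, RNF43, HOXB8, CA9, MT-RNR1, TMSB10, IER3, PDLIM5, LAMA5, SPARC and EIF4G1, the last 3 and PDLIM5 named after their values were seen. Over all genes DESeq2 called 0.333% higher and 0.319% lower.

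Lists of the cytoskeleton and of adhesion had no member called in edgeR apart from DPP4. In DESeq2, TMSB10 and PDLIM5, an actin-associated adaptor (log2 difference -1.21, adjusted p = 0.0148), were lower, as were LAMA5, a laminin chain (-1.59, adjusted p = 0.0132), SPARC, a matrix protein (-2.73, adjusted p = 0.031), and the immediate early gene IER3 (-0.72, adjusted p = 0.0485). Serum response factor targets had 12 of 19 higher and a median of 0.05, with TPM2, a tropomyosin, at 0.06 (SE 0.18) and FLNA, filamin A, at -0.43 (SE 0.21). Actin assembly factors had 22 of 31 lower and a median of -0.13. CFL1, cofilin, differed by 0.03 (SE 0.13), and TMSB10, a thymosin that binds free actin, by -0.78 (SE 0.18, adjusted p = 0.268 in edgeR, 0.0399 in DESeq2 and 0.0159 without the low-count filter). The 3 tested actins had a median of -0.07 and the 8 subunits of the TRiC chaperonin, which folds actin, one of 0.08. Integrin chains had 9 of 13 lower and a median of -0.25, with ITGA3 at -0.28 (SE 0.33) and ITGB4 at -0.26 (SE 0.25). Focal adhesion components had 25 of 44 higher and a median of 0.06, and cell-cell junctions 21 of 33 lower and a median of -0.12. Genes of the extracellular matrix had 13 of 22 lower and a median of -0.28. Immediate early genes had a median of -0.33, YAP-TAZ targets one of -0.05 and mesenchymal genes one of -0.19.

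Genes of translation, ribosome assembly and cell division held no call in edgeR. EIF4G1, a scaffold of translation initiation, was called lower in DESeq2 (-1.08, adjusted p = 0.0172) and without the low-count filter (adjusted p = 0.00179), and RPL35A, a ribosomal protein, was called higher without that filter (0.93, adjusted p = 0.0266). The 80 cytosolic ribosomal proteins had 40 higher and 40 lower and a median of 0.00, with RPS2 at -0.17 (SE 0.11) and RPL13 at -0.29 (SE 0.12). Translation factors had a median of -0.02, tRNA synthetases one of 0.02 and mitochondrial ribosomal proteins one of 0.09. Ribosome biogenesis factors had 44 of 58 higher and a median of 0.22, with FBL, fibrillarin, at 0.11 (SE 0.18). Genes of mitosis and DNA replication had 33 of 43 higher and a median of 0.25, with MCM7, a helicase subunit, at 0.28 (SE 0.16).

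Other programmes were likewise without a call in edgeR. DESeq2 called CA9 (adjusted p = 3.69e-05), HOXB8 (2.61e-04) and MT-RNR1 (0.00238), as did edgeR without the low-count filter. The BAF complex had 16 of 24 lower and a median of -0.09, p53 targets 16 of 23 lower and a median of -0.32, and replication-dependent histones a median of -0.23. Hypoxia and glycolysis had 23 of 37 higher (median 0.10), ATF4 targets 15 of 24 (0.09), endoplasmic reticulum chaperones 16 of 21 (0.18) and MHC class I genes 13 of 19 (0.12). Cholesterol synthesis had a median of -0.08, oxidative phosphorylation one of -0.10, keratins one of 0.06, HOX genes one of 0.15 and protein histidine and actin-modifying enzymes one of -0.09. Of 15 mitochondrially encoded transcripts 12 were lower, with a median of -0.46. The mitochondrial share of counts was 1.52%, 1.7% and 0.983% in CT and 0.919%, 1.31% and 1.31% in KO2, and its part in other results was not tested.

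**Figure D5:**
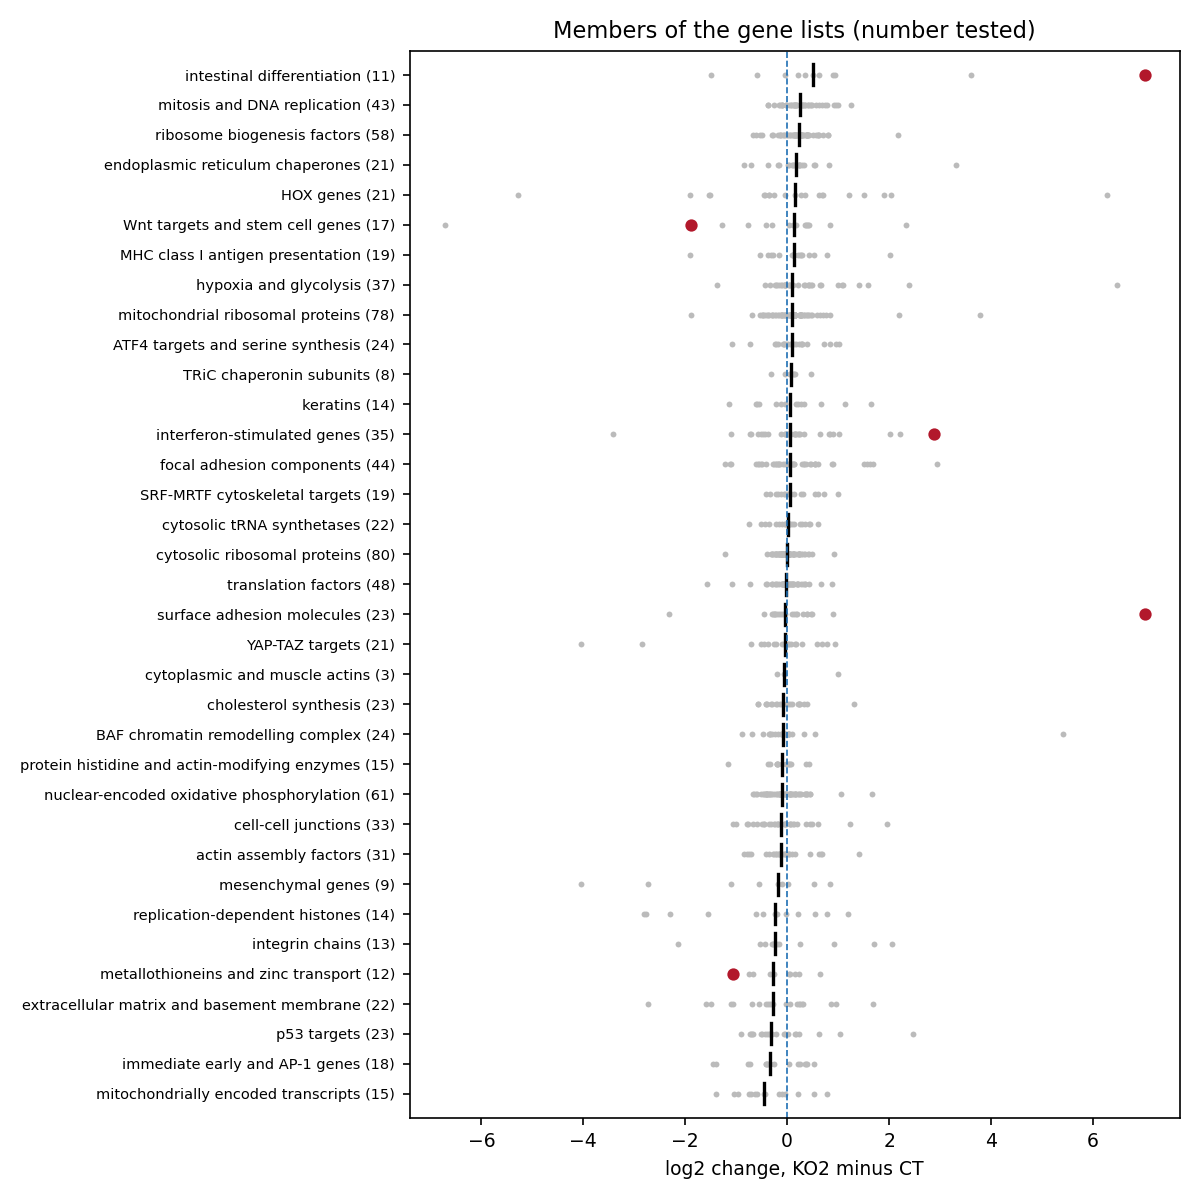
Log2 change in KO2 minus CT (x axis) of each tested member of the 35 pathway lists (y axis, number tested in brackets); grey points are genes, red points called genes, black bars list medians and the dashed line the median of all tested genes at -0.01. The medians lie between -0.46 and 0.50.

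The labelled cell type was checked against marker genes. Of 13 markers of a colon epithelial line 6 were tested (EPCAM, CDH1, KRT8, KRT18, KRT19 and CDX2), and their list summed to 8870 to 12800 CPM in CT and 8280 to 12100 CPM in KO2. CDH17, CEACAM6 and GPA33 had no count in any library. Fibroblast markers summed to 15.9 to 19.5 CPM in CT and 24.7 to 32.6 CPM in KO2, with COL3A1, DCN and LUM at 0. Blood cell markers summed to 7.95 to 10.9 CPM in CT and 9.93 to 34.4 CPM in KO2, with PTPRC, CD3E and CD14 at 0. Neural markers summed to 72.2 to 117 CPM and 64.1 to 154 CPM, mostly TUBB3, and liver and kidney markers to 11.9 to 20.8 CPM and 3.23 to 9.55 CPM, with ALB and UMOD at 0. No marker gene was called in KO2 against CT in edgeR or DESeq2.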

How the data were processed

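RNA levels were measured by poly(A) RNA-seq. Per the submitters' processing notes, the authors used Trim Galore 0.4.5, cutadapt 1.15, RSEM 1.2.28 and Bowtie2 on GRCh38; the annotation release and strand setting are not given in the sources used here. The deposited values are RSEM expected counts per gene, not normalised, of which 83.8% were whole within 0.005, and 36107 rows had no count. Here they were rounded, filtered with filterByExpr, which kept 13846 genes and 99.71% of counts, scaled by TMM and tested in edgeR 4.0.16 (R 4.3.3) with robust quasi-likelihood F tests, two-sided. All 9 libraries of the SETD3 table entered 1 fit with group as the factor. The SE is the absolute log2 change divided by the square root of F. The procedure was tested on simulated data.

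Coordinates come from GENCODE release 29, which matched 58496 of 60683 identifiers. Symbols shared by more than 1 row numbered 33. The values of 1 gene of the lists are not reported here. Promoters come from RefSeq (GRCh38.p14); the 50 bases after the start were left out.

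The genes named are the called genes, the smallest p-values up to 12 in each direction among genes whose libraries did not overlap and whose higher group averaged 5 CPM or more, SETD3, ACTB, ACTG1 and SMARCA4, and examples from each list, which are its called members or those of highest level. IFI6, BST2, ISG15, IFITM3, OAS1, RPL35A and the relatives and pathway partners of called genes were chosen after values were seen. So were SOX4, SOX9, NOTUM and the untested genes of intestinal differentiation. Intervals and floors, at a 95% level and 3 counts, cover counting error only. The comparison, lists and tests were chosen with earlier results of these data known. The alternatives were other scaling (RLE), DESeq2 1.42.0, limma-voom 3.58.1, other filters, GC offsets, a replicate block, the compared groups alone and leaving out libraries.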

Additional observations from a re-analysis of the deposited data

Results flagged for a closer look

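In 4 genes the KO2 line differed from the KO1 line by a test of the difference itself, although both lines carry the same knockout label and share the CT control. IFI27 was higher in KO2 by 4.16 on the log2 scale, IFI6 by 2.82, BST2 by 4.17 and LY6D by 4.05, each in 3 of 3 libraries. Single genes were not searched for an outlying library, since each group held 3.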

How the results depend on the processing

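The number of genes called in KO2 against CT was 8, and it was 90 in DESeq2 (46 higher, 44 lower), 68 without the low-count filter (36 and 32), 14 with GC offsets (8 and 6) and 1 when only the groups compared were fitted. Leaving out one library gave 3 to 7 calls. The replicate block gave 1 call, IFI27. Deviations of same-numbered KO2 and CT libraries from their group means correlated at -0.19, -0.08 and 0.03 over all tested genes. With 3 libraries a group, these values cannot settle whether equal numbers mark paired samples. Against KO1 the 4 calls became 56 in DESeq2 (37 and 19), 58 without the filter (40 and 18), 9 in limma-voom and 7 with GC offsets, 3 to 5 without one library, and 10 without CT replicate 2 and KO2 replicate 1 together, an alternative chosen after seeing the data that gave 10 calls against CT. The causes were not tested. IFI27 was called in all 16 alternatives in both comparisons, as were IFI6 and BST2 against KO1. NR2F1 was lost with only the groups compared (adjusted p = 0.0534) and with the block (0.0779). All 8 genes called against CT were called in DESeq2.

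Uncalled values changed sign in 14 cases. Without KO2 replicate 1, ACTG1 was at 0.17, EIF5A at -0.093, P4HB at -0.017, KRT8 at -0.18 and LYZ at -0.58. Without CT replicate 2, CDC20 was at 0.14 and SLC3A2 at 0.26. Without both, MYOF was at -0.27, FBL at -0.094, HOXB7 at -0.015, LYZ at -0.81, SERPINA1 at 0.10 and LCN2 against KO1 at -0.14. In limma-voom LYZ was at -0.30. Over the fits without one library, the other ends of these ranges were -0.30 for ACTG1, 0.42 for EIF5A, 0.41 for P4HB, 0.56 for KRT8, 1.28 for LYZ, -0.29 for CDC20 and -0.34 for SLC3A2. Of the list medians under the alternatives, 614 moved by less than the spread and 26 by more. Depth limits low genes: KO2 replicate 1 held 3389586 counts.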
